A study of Homo sapiens with 18 samples.

Results

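PEA2 and PEA1 are cell lines grown from the ascites of 1 patient with high-grade serous ovarian cancer. PEA1 was made before platinum chemotherapy and is labelled clinically sensitive, and PEA2 was made after relapse and is labelled clinically resistant. Gene expression was compared between the 3 PEA2 and the 3 PEA1 RNA-seq libraries over all 12853 genes of the deposited table. These are 6 of the 18 RNA-seq libraries of the series, which also hold 3 libraries each of the serous lines PEO1 and PEO4 and of the ovarian lines A2780 and CP70. CP70 is a platinum-resistant line made from A2780 in vitro. The libraries were made from total RNA depleted of ribosomal RNA, with a kit that keeps the strand, from cells grown in RPMI-1640 medium with serum. PEO1 and PEO4, a sensitive and a resistant line of another patient, are used below to test whether a PEA difference is larger or smaller than theirs. According to the paper, both PEO lines date from after platinum chemotherapy, PEO1 before and PEO4 after clinical resistance developed. Only the PEA pair therefore spans the start of platinum chemotherapy. The PEO libraries and those of A2780 and CP70 also enter the spread from which each SE and FDR was computed. Each line is a single culture history, so what separates PEA2 from PEA1 includes relapse, chemotherapy in the patient, the derivation of each line and its time in culture, and these cannot be told apart.

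High-grade serous carcinoma arises mainly from the secretory epithelium of the fallopian tube and typically carries the Müllerian factors PAX8 and WT1. Epithelial cells are held together by E-cadherin and claudins and built on keratins, and they can pass into a mesenchymal state with vimentin, fibrillar collagen and the repressors ZEB1 and ZEB2, which bind E-box sequences and silence epithelial genes. Platinum drugs kill by DNA adducts, so uptake, efflux, thiol defence, adduct repair and the threshold for apoptosis are the classic places where resistance has been sought. Tumour cells of this kind can also secrete chemokines under the transcription factor NF-kB, which binds sites called kB in the promoters of its targets.

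The deposited values are log2 CPM, reads scaled to a common library size, with 0.5 reads added by the authors to each count. Whole reads came back from 100% of them, and the PEA1 libraries held between 1344098 and 1670866 reads on the listed genes while the PEA2 libraries held between 2130465 and 4027657. A gene with at most 3 reads in every library of a line was treated as being at the floor of that line. A fold against a line with 0 reads in all its libraries is given as at least so many fold, against 3 reads over its 3 libraries pooled, with the reads of the other line pooled as well, and a fold against a line with a few reads is given as a ratio with an exact 95% interval, which covers counting error only. Read numbers below are unscaled and follow the order of replicates 1 to 3, and every fold or log2FC is scaled for library size. The labels do not say whether replicates came from separate cultures, so p-values measure only the spread between replicate libraries, which may be technical. That spread was pooled over the 18 libraries of all 6 lines, so noise in a line outside the PEA pair can widen an SE given here. Across genes, the deposited values correlated at 0.963 to 0.966 within PEA1, 0.962 to 0.97 within PEA2 and 0.724 to 0.728 between the lines. Between PEO1 and PEO4 the correlation was 0.869 to 0.876. These are descriptions over 12853 genes of single libraries, and genes are not independent replicates.

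PEA2 differed from PEA1 in a large part of the transcriptome. At a log2FC above 2 and a false discovery rate (FDR) below 0.05 in limma, 1019 genes were higher in PEA2, which is 7.93% of all genes tested, and 790 were lower, which is 6.15%. At a log2FC above 1, that is over 2-fold, 2354 genes were higher (18.3%) and 1966 were lower (15.3%). These last percentages are the background against which the gene lists below are read. The median log2FC of all genes was 0.01. Of the genes called at the stricter threshold, 431 were higher with PEA1 at the floor and 246 were lower with PEA2 at the floor. Another 587 higher and 521 lower genes were above the floor in both lines. When values were scaled to library totals alone, the median log2FC of all genes was -0.24, the share of higher genes among those called was 47.5% in place of 56.3%, and among those over 2-fold it was 41.3% in place of 54.5%. Splits into higher and lower genes are therefore relative to the authors' scaling.

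**Figure D1:**
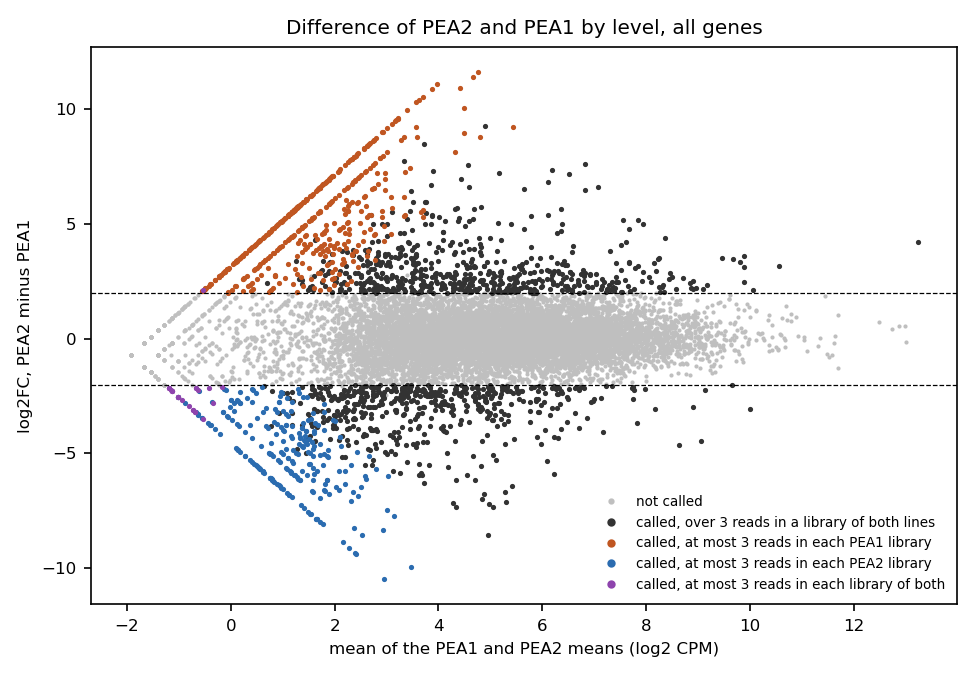
Each point is 1 gene, with the mean of its PEA1 and PEA2 levels (log2 CPM) on the horizontal axis and its log2FC, PEA2 minus PEA1, on the vertical axis. Genes not called are grey, called genes above the floor in both lines are black (587 higher and 521 lower), and colours mark the 431 called with PEA1 at the floor, the 246 with PEA2 at the floor and 24 with both lines at the floor, with dashed lines at log2FC 2 and -2.

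Among genes with over 3 reads in each of the 6 libraries, GPRC5A, a retinoic acid-induced receptor of epithelial cells, rose most. It held 18, 8 and 11 reads in PEA1 and 3196, 5178 and 3492 in PEA2, and no PEA1 library came near a PEA2 library (log2FC 7.62, SE 0.59, FDR 9.93e-10). MACC1, a regulator of the MET receptor gene, followed with a log2FC of 7.34, and the membrane trafficking protein gene MAL2 with 7.18. SPON1 (6.85), NID2 (6.61), ITGA2 (6.52), ALDH1A3 (6.48), SLC4A11 (5.76), ANKRD1 (5.66), L1CAM (5.38), LCP1 (5.37) and PLAT (5.16) completed the 12 largest rises, each with an FDR of 1.04e-06 or less. They code for a mixture of basement membrane and adhesion proteins, a collagen receptor, a retinaldehyde dehydrogenase, an ion transporter and the tissue plasminogen activator. NID2 overlaps RTRAF on the opposite strand.

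The largest fall among such genes was that of CLU, which codes for the secreted chaperone clusterin. CLU held 430, 617 and 704 reads in PEA1 and 4, 12 and 4 in PEA2 (log2FC -7.19, SE 0.21, FDR 6.39e-16). NPNT (-7.11), which codes for an integrin ligand, the oestrogen and xenobiotic hydroxylase gene CYP1B1 (-6.99), NAV1 (-6.77), COL1A1 (-6.67) and MMP2 (-6.41) came next. TLN2 (-6.18), ITGB3 (-6.17), MXRA5 (-5.96), CA12 (-5.91), AK5 (-5.61) and LPHN2 (-5.55) completed the 12 largest falls. Matrix and adhesion genes thus stood at both ends. NPNT overlaps INTS12, and CYP1B1 overlaps RMDN2, on the opposite strand.

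Other genes were read in 1 line and nearly silent in the other. The 6 with the highest level in PEA2 and PEA1 at the floor were CXCL5, LCN2, KRT7, SPOCK2, KRT81 and the long noncoding RNA gene UCA1. UCA1 had 0 reads in every PEA1 library and 1171, 3060 and 1548 in PEA2, at least 1155-fold higher. SPOCK2, which codes for a matrix proteoglycan, had 1 read in all of PEA1 against 1802, 3227 and 2095 in PEA2, a ratio of 4272 (766 to 168752). In the other direction the 6 were FAT1, TM4SF18, SALL1, VAV3, ILDR2 and KCNMA1. FAT1, an atypical cadherin gene, held 530, 452 and 599 reads in PEA1 and 0, 2 and 0 in PEA2, a ratio of 1318 (364 to 10895). TM4SF18 was at least 734-fold lower in PEA2 and the developmental repressor gene SALL1 at least 353-fold lower.

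The epithelial genes moved together. All 40 listed members of the list of epithelial junctions and their regulators were in the table, 35 of them (87.5%) rose over 2-fold against 18.3% of all genes, and 1 (2.5%) fell. The median log2FC of the list was 4.09, or 4.03 with genes at the floor set at their bound, and 15 members were at the floor in PEA1. CDH1, which codes for E-cadherin (chromosome 16, 68771195 to 68869440 on GRCh37), held 2, 4 and 0 reads in PEA1 and 1416, 2187 and 1867 in PEA2. Its deposited values were 0.86, 1.68 and -1.80 in PEA1 and 9.56, 9.30 and 9.74 in PEA2, so the lines were separated by more than the whole spread within PEA1 (log2FC 9.28, SE 0.55, FDR 1.99e-11). EPCAM, the epithelial adhesion molecule gene, was present in PEA1 at 21, 28 and 21 reads and reached 640, 1614 and 768 in PEA2 (log2FC 4.60, SE 0.18, FDR 4.42e-14). The splicing regulator gene ESRP1 had 0 reads in PEA1 and 660, 1181 and 664 in PEA2, at least 501-fold higher. EHF, an epithelial ETS factor gene, had 0 reads in PEA1 and was at least 752-fold higher in PEA2. CLDN3, a tight junction gene, had 1, 1 and 0 reads in PEA1 and 145, 273 and 244 in PEA2, a ratio of 198 (54.7 to 1642). TJP1, which codes for the junction scaffold ZO-1, was the member that fell, by 1.05 (FDR 6.06e-09).

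The repressors that silence epithelial genes were on the other side. ZEB1 (chromosome 10, 31607424 to 31818742 on GRCh37) held 134, 174 and 196 reads in PEA1 and 0, 1 and 0 in PEA2, a ratio of 841 (150 to 33263) with higher expression in PEA1. ZEB2 held 19, 21 and 21 reads in PEA1 and 1, 0 and 1 in PEA2, a ratio of 50.9 (13.5 to 429). Every PEA1 library lay above every PEA2 library for both genes. SNAI2, another repressor gene of the family of Snail, held 5, 4 and 1 reads in PEA1 and 3, 5 and 2 in PEA2, with a log2FC of -0.57 that did not pass the test (FDR 0.377).

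**Figure D2:**
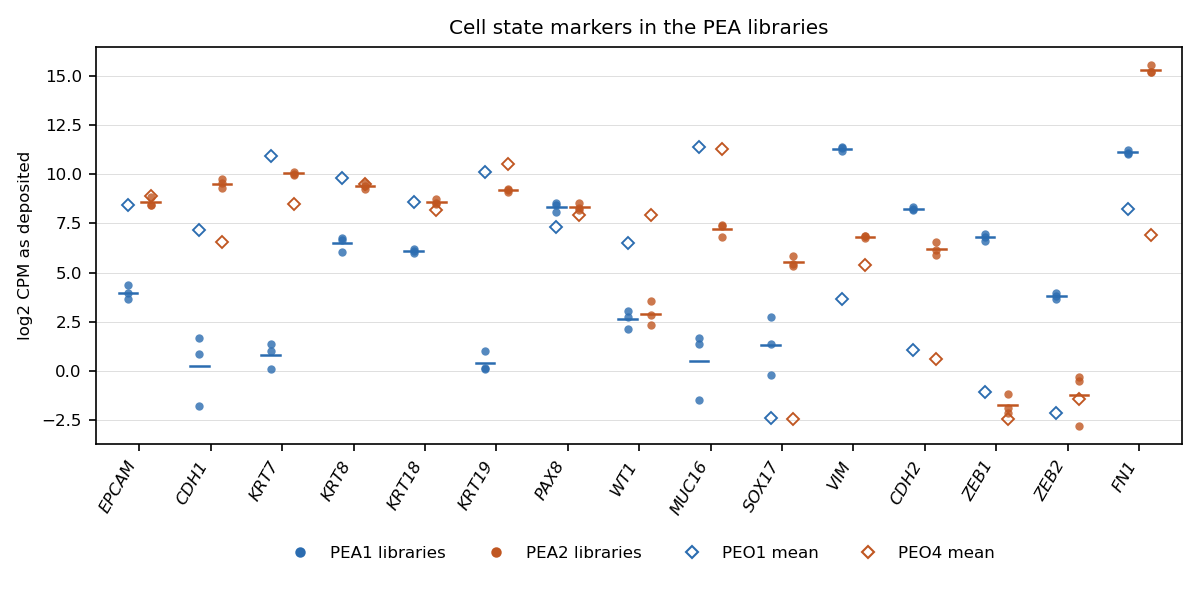
Deposited log2 CPM of cell state marker genes, with 1 point per library and a bar at the mean for PEA1 and PEA2, and open diamonds at the PEO1 and PEO4 means. The CDH1 points of PEA2 lie between 9.30 and 9.74 and those of PEA1 between -1.80 and 1.68, while VIM lies between 11.17 and 11.37 in PEA1 and between 6.74 and 6.88 in PEA2.

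ZEB1, ZEB2 and the factors of the Snail family bind E-boxes with the letters CACCTG, or CAGGTG on the other strand. These letters were searched on both strands in windows of 250 bases before to 50 after the start of each gene (RefSeq, GRCh38.p14). They occurred in 20.6% of 35116 windows. Of the epithelial list, 21 of 40 genes had a window, and 13 of these (61.9%) held the letters, among them 10 of the 18 that rose over 2-fold and all 3 that did not. The list includes genes that these repressors are known to silence, so its share is no finding of these data. Short stretches from the promoters of 4 of those that rose follow, because they show where the letters lie. The 4 genes were chosen after their values were seen. In each line the E-box letters are in capitals, the gene's own strand is written 5′ to 3′, and coordinates are on GRCh38.p14. RAB25, a trafficking GTPase gene, had 0 reads in PEA1 and was at least 65.6-fold higher in PEA2. The letters start 41 bases before its start, at chr1:156061079-156061164 on the plus strand. ELF3, an epithelial ETS factor gene, rose by 2.62 in log2FC (FDR 1.4e-07), and its letters start 120 bases before its start, at chr1:202010427-202010512 on the plus strand. SPINT1, which codes for an inhibitor of matriptase, rose by 7.59 (FDR 8.37e-11), and its letters start 26 bases before its start, at chr15:40844411-40844496 on the plus strand. CLDN7 had 0 reads in PEA1 and was at least 260-fold higher, with ELP5 overlapping it on the opposite strand and ENSG00000262302 on the same strand. Its stretch holds the letters 3 times around its start, the first 20 bases before it, and lies at chr17:7262453-7262538 on the minus strand.
RAB25: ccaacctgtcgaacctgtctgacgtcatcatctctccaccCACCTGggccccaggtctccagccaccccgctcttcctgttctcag
ELF3: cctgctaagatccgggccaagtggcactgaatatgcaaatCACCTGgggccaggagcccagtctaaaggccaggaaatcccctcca
SPINT1: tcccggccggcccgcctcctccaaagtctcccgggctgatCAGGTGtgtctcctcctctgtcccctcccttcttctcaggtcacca
CLDN7: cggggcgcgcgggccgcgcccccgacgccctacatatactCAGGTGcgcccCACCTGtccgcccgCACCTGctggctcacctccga
A match of 6 letters is a description of the sequence and does not show that a factor was bound there.

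Keratins, the intermediate filaments of epithelia, rose in the same libraries. Of 12 listed keratin genes 9 (75%) rose over 2-fold and 0 fell, with a median log2FC of 2.63. KRT7 held 3, 1 and 3 reads in PEA1 and 1968, 3913 and 2204 in PEA2, a ratio of 693 (336 to 1723). KRT7 overlaps KRT86 on the same strand, so reads of the pair could be split. KRT19 had 1, 1 and 3 reads in PEA1 and 1040, 2129 and 1275 in PEA2, a ratio of 533 (228 to 1642). The hair keratin gene KRT81 had a ratio of 1701 (471 to 14053). PEA1 was not without keratin. KRT8 held 150, 93 and 174 reads in PEA1 and rose by 2.91 (FDR 1.04e-06), and KRT18 held 101, 89 and 119 and rose by 2.49 (FDR 2.81e-11). KRT8 and KRT18 overlap on opposite strands.

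The serous lineage genes gave a mixed picture. Of 26 listed members 16 (61.5%) rose over 2-fold and 3 (11.5%) fell, with a median log2FC of 2.24, or 1.29 with genes at the floor set at their bound. The Müllerian factor gene PAX8 held 518, 379 and 595 reads in PEA1 and 543, 1276 and 689 in PEA2. Its deposited values overlapped, at 8.08 to 8.56 in PEA1 and 8.18 to 8.52 in PEA2 (log2FC -0.02, SE 0.27, FDR 0.957). WT1 was low in both lines, with 11, 9 and 7 reads in PEA1 and 13, 17 and 25 in PEA2 (log2FC 0.26, FDR 0.529). MUC16, the gene of the CA125 antigen, had 3, 0 and 5 reads in PEA1 and 211, 576 and 374 in PEA2 (log2FC 6.70, FDR 5.16e-08). SOX17, a factor of the Müllerian epithelium, rose by 4.22 (FDR 1.37e-06), and mesothelin (MSLN) had 2, 2 and 0 reads in PEA1 and a ratio of 46.3 (17.9 to 171). SLC34A2, the phosphate transporter gene, fell by 3.98 (FDR 1.36e-07), CLDN16 fell by 3.91 and ceruloplasmin (CP) fell by 2.63.

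Mesenchymal genes fell more often than they rose, yet several of the most widely used ones went the other way. Of 29 listed mesenchymal markers and regulators 15 (51.7%) fell over 2-fold, against 15.3% of all genes, and 9 (31%) rose, with a median log2FC of -1.06. Vimentin (VIM, chromosome 10, 17270240 to 17279592 on GRCh37) held 3166, 3723 and 4538 reads in PEA1 and 220, 402 and 234 in PEA2 (log2FC -4.47, SE 0.13, FDR 8.48e-16). MMP2 fell by 6.41, and N-cadherin (CDH2) fell by 2.06, from 450, 408 and 526 reads to 111, 324 and 156 in the deeper PEA2 libraries. Fibronectin (FN1, chromosome 2, 216225163 to 216300796) rose instead. It held 3307, 2968 and 3824 reads in PEA1 and 71957, 169184 and 82192 in PEA2 (log2FC 4.21, SE 0.26, FDR 4.55e-11). Fibronectin thus took up to 4.20% of the reads on the listed genes of a PEA2 library. SPARC, the gene of a matrix-binding glycoprotein, rose by 5.64 (FDR 1.34e-13), and the calcium-binding protein gene S100A4, which overlaps S100A3 on the same strand, rose by 4.27 (FDR 4.12e-10). PEA2 thus held E-cadherin and keratins together with fibronectin, SPARC and S100A4, without ZEB1.

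Markers of other cell types were checked because both lines came from ascites. In bulk RNA, fewer cells of a type and less RNA per cell cannot be told apart. The leukocyte markers CD3E, CD14 and CD68, the endothelial markers PECAM1 and VWF and the fibroblast marker PDGFRA were not among the listed genes. The summed level of the 3 listed leukocyte markers was 13.5 to 15.5 CPM in PEA1 and 29.9 to 33.4 CPM in PEA2. In it PTPRC, which codes for CD45, had 0 reads in PEA1 and 47, 70 and 46 in PEA2. The 3 listed endothelial markers summed to 17.3 to 25.6 CPM in PEA1 and 39.7 to 46.2 CPM in PEA2. Among them CDH5 had 0 reads in PEA1 and 66, 88 and 79 in PEA2, and ERG had 11, 8 and 8 reads in PEA1 and 0 in PEA2. The 10 listed fibroblast markers summed to 500 to 591 CPM in PEA1 and 186 to 187 CPM in PEA2, with 3 of 10 higher over 2-fold and 3 lower. Of these DCN, LUM and COL3A1 had 0 reads in all 6 libraries, and THY1 had 2, 1 and 0 in PEA1 and 0 in PEA2. The 8 listed mesothelial markers summed to 155 to 189 CPM in PEA1 and 325 to 408 CPM in PEA2, with 4 higher and 1 lower. Calretinin (CALB2) held 5, 12 and 3 reads in PEA1 and 65, 86 and 90 in PEA2 and rose by 2.99. UPK3B had 2, 1 and 3 reads in PEA1 and 0, 1 and 1 in PEA2. These levels moved with the line, and their part in the epithelial, mesenchymal and inflammatory differences was not tested.

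Matrix genes moved in both directions. Of 30 listed collagens and collagen-modifying genes 10 (33.3%) fell over 2-fold and 5 (16.7%) rose, with a median log2FC of -0.69. COL1A1 held 616, 513 and 649 reads in PEA1 and 7, 11 and 9 in PEA2. COL6A2 fell by 4.29 (FDR 9.02e-10), and the lysyl oxidase gene LOXL4 fell by 5.93 (FDR 1.38e-10). In contrast COL4A4, a chain of basement membrane collagen, had 1 read in all of PEA1 and 65, 120 and 69 in PEA2, a ratio of 152 (27.1 to 6039). Among 14 laminins and basement membrane genes 7 (50%) rose and 3 (21.4%) fell. LAMB3, a chain of the epithelial laminin-332, held 57, 54 and 87 reads in PEA1 and 2564, 5047 and 2994 in PEA2 (log2FC 5.01, FDR 7.05e-09). LAMA4 had 0 reads in PEA1 and was at least 54.6-fold higher in PEA2. The nidogens, which link laminin to collagen, moved apart. NID1 fell by 3.92 (FDR 5.18e-06) and NID2 rose by 6.61 (FDR 1.04e-12).

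Matrix glycoproteins rose in 10 of 28 (35.7%) and fell in 8 (28.6%). The integrin ligand osteopontin (SPP1) held 563, 622 and 711 reads in PEA1 and 2, 15 and 6 in PEA2 (log2FC -7.33, FDR 1.61e-09). Thrombospondin-1 (THBS1) held 4338, 4052 and 5111 reads in PEA1 and 694, 1260 and 714 in PEA2 (log2FC -3.08, SE 0.12, FDR 5.09e-14). IGFBP7 fell by 4.33 (FDR 2.43e-05) and IGFBP3 rose by 3.51 (FDR 1.59e-12). The integrin subunits, receptors for these proteins, fell in 7 of 19 (36.8%) and rose in 4 (21.1%). ITGB3 fell by 6.17, ITGA4 fell by 5.50 and ITGA11 fell by 3.88, whereas the collagen receptor subunit ITGA2 held 6, 6 and 11 reads in PEA1 and 1001, 1708 and 922 in PEA2. ITGB8 rose by 2.46 (FDR 2.91e-06). Proteases and their inhibitors rose in 14 of 29 (48.3%) and fell in 6 (20.7%). TIMP3, an inhibitor of metalloproteinases that overlaps SYN3 on the opposite strand, had 0 reads in PEA1 and was at least 212-fold higher in PEA2. The plasminogen activator gene PLAT held 31, 68 and 88 reads in PEA1 and 2585, 4623 and 3097 in PEA2. MMP1 had 0 reads in PEA1 and was at least 19.8-fold higher.

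**Figure D3:**
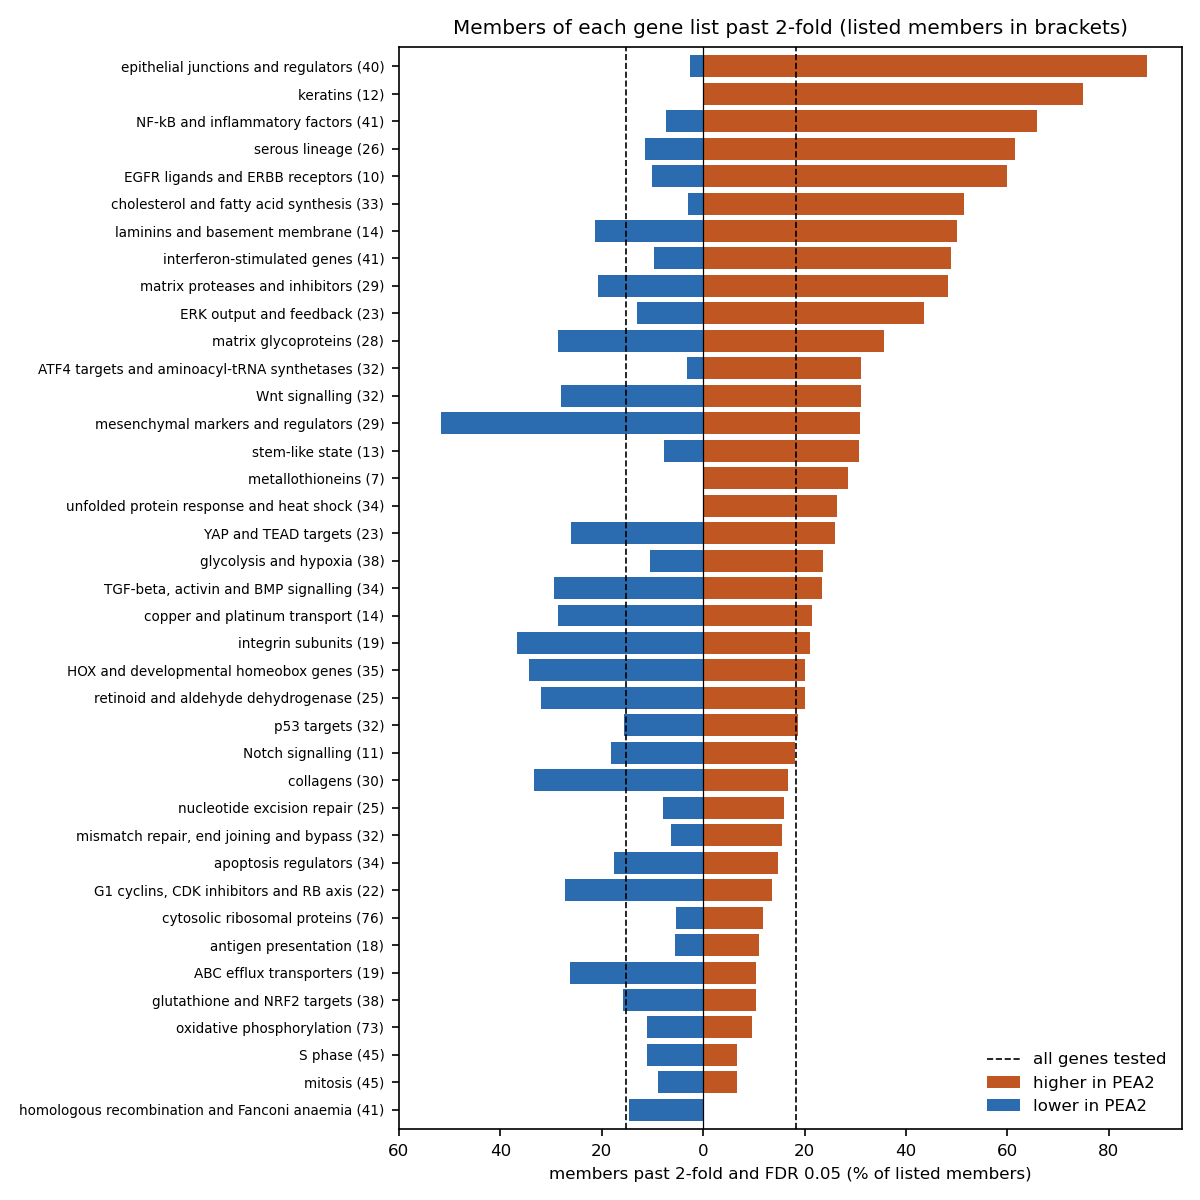
For each gene list other than the marker lists of other cell types, bars give the share of listed members (%) that were higher or lower in PEA2 at over 2-fold and an FDR below 0.05, with the number of listed members in brackets and dashed lines at the shares over all genes tested. Epithelial junctions reach 87.5% higher, against 18.3% over all genes, and mesenchymal genes 51.7% lower, against 15.3%.

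Inflammatory genes were the other large group that rose. Of 41 listed NF-kB targets and inflammatory factors 27 (65.9%) rose over 2-fold and 3 (7.32%) fell, with a median log2FC of 2.88, and 9 were at the floor in PEA1. CXCL5, a neutrophil chemokine gene (chromosome 4, 74861359 to 74864394 on GRCh37), had 1, 0 and 0 reads in PEA1 and 3343, 4809 and 3061 in PEA2, a ratio of 6724 (1207 to 265597). Lipocalin-2 (LCN2), a secreted iron-binding protein gene, had 1, 0 and 0 reads in PEA1 and 2139, 4973 and 3106 in PEA2, a ratio of 6127 (1099 to 242031). IL8, the gene of the chemokine now called CXCL8, had 0 reads in PEA1 and 1475, 2040 and 1246 in PEA2, at least 952-fold higher. All 3 genes were therefore close to silent in PEA1. The members that fell were CSF1, a macrophage growth factor gene (-1.96), and the NF-kB pathway genes NFKBIE (-1.72) and RELB (-1.13), and scaling to library totals gave 5 lower members in place of 3.

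The chemokine genes that bind the receptor CXCR2 lie together on chromosome 4, and they were examined as a cluster after their values were seen. CXCL1 held 30, 50 and 67 reads in PEA1 and 2401, 3591 and 2322 in PEA2 (log2FC 5.16, FDR 1.68e-08). CXCL2 held 6, 7 and 10 reads in PEA1 and 164, 221 and 156 in PEA2 (3.79, FDR 2.15e-07). CXCL3 had 3, 1 and 3 reads in PEA1 and 37, 65 and 57 in PEA2, a ratio of 13.6 (6.46 to 34.4). CXCL6 was the exception in size, with 13, 5 and 10 reads in PEA1 and 41, 52 and 26 in PEA2 (1.38, FDR 0.0157). The T-cell and dendritic cell chemokine gene CCL20, on chromosome 2, had 0 reads in PEA1 and 495, 903 and 551 in PEA2, at least 390-fold higher. The interleukin-1 genes were also higher. IL1B had 0 reads in PEA1 and 379, 948 and 425 in PEA2, at least 350-fold higher, and IL1A had 1, 1 and 1 against 970, 1866 and 1003, a ratio of 767 (262 to 3723). IL6 held 23, 27 and 41 reads in PEA1 and 268, 522 and 324 in PEA2 (log2FC 2.88, FDR 5.19e-05). The genes of CCL20, IL1A, IL1B and IL6 were likewise chosen after their values were seen.

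The letters of a kB site, GGGNNTTTCC or GGAAANNCCC on the other strand, were searched in the same promoter windows. They occurred in 1.91% of 35116 windows. In the NF-kB list 34 of 46 genes had a window and 15 of these (44.1%) held the letters, among them 10 of the 21 that rose. A list of known NF-kB targets holds such sites by construction, so this share is no finding of these data. The stretches of the chemokine genes and of IL6 are shown with the kB letters in capitals. In these genes, chosen after their values were seen, the letters begin between 73 and 91 bases before the start. NFKBIA, at 81 bases, lay in that range too. Other members did not, such as NFKBIZ at 223, BIRC3 at 199 and NFKB1 at 49 bases before the start. The distance is therefore not common to the list. Coordinates are on GRCh38.p14 and each sequence runs 5′ to 3′ on the gene's strand. CXCL1 is read at chr4:73869274-73869363 on the plus strand, CXCL2 at chr4:74099224-74099313 on the minus strand, and CXCL3 at chr4:74038719-74038808 on the minus strand. CXCL5 is read at chr4:73998719-73998808 on the minus strand and CXCL6 at chr4:73836548-73836637 on the plus strand. CCL20 is read at chr2:227813723-227813812 and IL6 at chr7:22727087-22727176, both on the plus strand.
CXCL1: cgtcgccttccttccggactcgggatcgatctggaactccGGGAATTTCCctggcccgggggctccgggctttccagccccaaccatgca
CXCL2: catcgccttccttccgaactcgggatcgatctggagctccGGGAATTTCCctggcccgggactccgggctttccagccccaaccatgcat
CXCL3: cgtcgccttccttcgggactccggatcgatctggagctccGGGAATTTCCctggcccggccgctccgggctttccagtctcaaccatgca
CXCL5: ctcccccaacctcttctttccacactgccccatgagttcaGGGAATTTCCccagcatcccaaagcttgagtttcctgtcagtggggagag
CXCL6: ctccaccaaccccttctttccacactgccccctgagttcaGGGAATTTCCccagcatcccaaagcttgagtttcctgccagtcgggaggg
CCL20: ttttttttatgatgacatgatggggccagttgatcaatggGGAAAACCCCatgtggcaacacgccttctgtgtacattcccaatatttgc
IL6: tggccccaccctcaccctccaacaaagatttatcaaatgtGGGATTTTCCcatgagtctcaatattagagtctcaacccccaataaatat
All 5 CXCL stretches carry the same 10 letters, although the log2FC of these genes ran from 1.38 for CXCL6 to 11.62 for CXCL5, where CXCL5 is at the floor in PEA1.

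**Figure D4:**
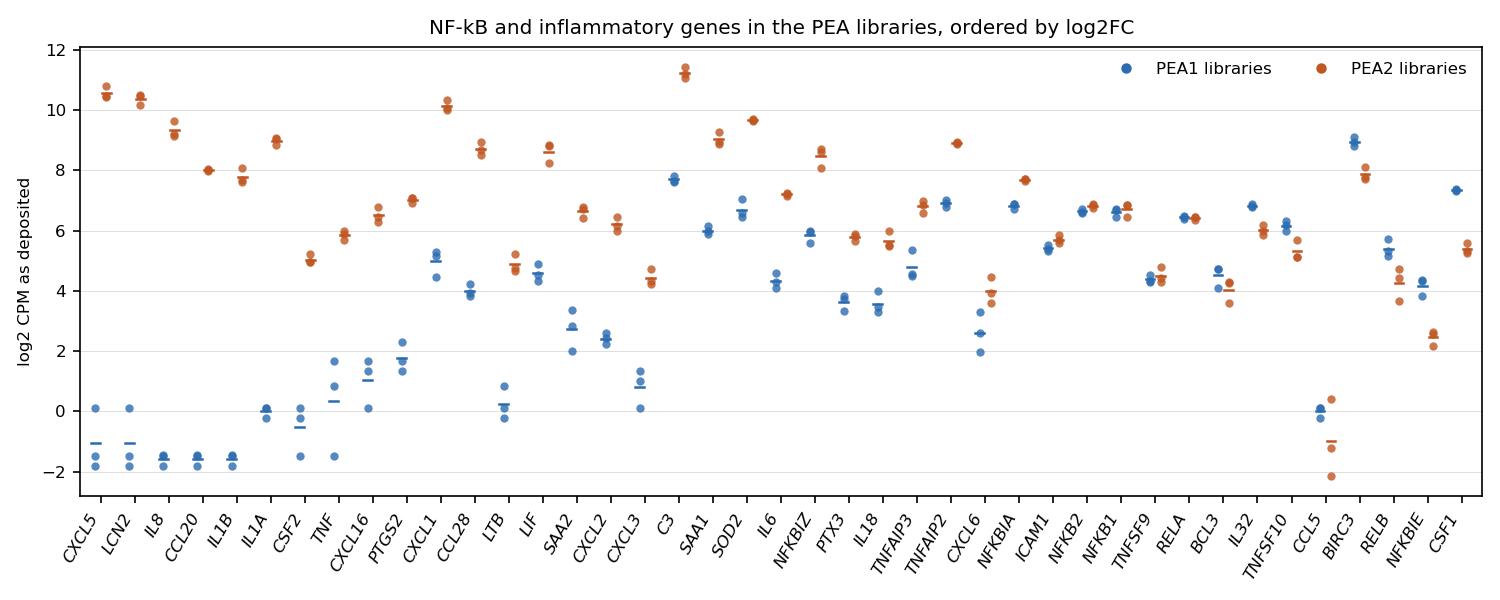
Deposited log2 CPM of the listed NF-kB and inflammatory genes, ordered by log2FC, with 1 point per PEA1 and PEA2 library. The CXCL5 points of PEA2 lie between 10.43 and 10.80 and those of PEA1 between -1.80 and 0.12, and the order ends with the members that fell, such as CSF1.

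Interferon-stimulated genes, which answer viral or endogenous nucleic acid, rose less uniformly. Of 41 listed 20 (48.8%) rose over 2-fold and 4 (9.76%) fell, with a median log2FC of 0.92. LAMP3 had 0 reads in PEA1 and 195, 192 and 195 in PEA2, at least 116-fold higher, and MX2 had 0 reads in PEA1 and was at least 71.6-fold higher. IFI27 had 1 read in all of PEA1 and 95, 216 and 134 in PEA2, a ratio of 267 (47.6 to 10563). Others fell, with BST2, the gene of tetherin, at -2.89 (FDR 3.63e-06), IFITM2 at -1.82 and IFI44L at -1.65. Antigen presentation differed little by these counts, with 2 of 18 genes higher (11.1%), 1 lower (5.56%) and a median of -0.07. HLA-B had a log2FC of -0.92 (FDR 0.00055).

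The ligands of the EGF receptor changed while the receptor itself did not pass the test. Of 10 listed EGFR ligands and ERBB receptors 6 (60%) rose over 2-fold and 1 (10%) fell, with a median log2FC of 2.51, or 1.96 with genes at the floor set at their bound. Epiregulin (EREG) held 96, 104 and 122 reads in PEA1 and 3444, 4636 and 3044 in PEA2 (log2FC 4.39, SE 0.59, FDR 2.48e-06). Amphiregulin (AREG) had 0, 0 and 4 reads in PEA1 and 294, 510 and 313 in PEA2 (log2FC 7.75, FDR 1.07e-08). The receptor gene ERBB3 had 1, 0 and 1 reads in PEA1 and 128, 223 and 145 in PEA2, a ratio of 149 (41 to 1231). Its ligand gene NRG1 fell by 3.60 (FDR 1.71e-10). EGFR held 799, 808 and 1422 reads in PEA1 and 1104, 2049 and 1435 in PEA2, with overlapping levels (log2FC -0.09, FDR 0.744). Genes of ERK output, the kinase cascade below these receptors, rose in 10 of 23 (43.5%) and fell in 3 (13%). Among them the phosphatase gene DUSP5 rose by 2.49 and IER3 rose by 2.31, and FOSL1 (-1.04) and SPRY4 (-1.12) fell. JUN (-1.02, FDR 0.0494) lost its call when any library was left out. Its deposited values did not overlap, at 6.39 to 6.78 in PEA1 and 5.43 to 5.67 in PEA2. The JUN SE of 0.44 pooled the spread of all 6 lines, and that spread was largest in A2780, outside the PEA pair. MYC held 196, 255 and 283 reads in PEA1 and 364, 604 and 379 in PEA2 (log2FC 0.16, FDR 0.198).

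Targets of YAP and TEAD, the effectors of the Hippo pathway, split evenly, with 6 of 23 (26.1%) higher, 6 lower and a median of -0.02. The classic targets did not move as a unit. ANKRD1 held 13, 15 and 24 reads in PEA1 and 1163, 1961 and 1232 in PEA2, and tissue factor (F3) held 7, 2 and 4 in PEA1 and 802, 1500 and 999 in PEA2. CTGF, the connective tissue growth factor gene, held 126, 133 and 185 in PEA1 and 22, 37 and 18 in PEA2 (log2FC -3.24, FDR 1.2e-11).

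In the TGF-beta, activin and BMP list 8 of 34 (23.5%) rose over 2-fold and 10 (29.4%) fell. The BMP target gene ID3 held 33, 54 and 76 reads in PEA1 and 0 in every PEA2 library, at least 90.6-fold lower. The decoy receptor gene BAMBI, with 0 reads in PEA2, was at least 61.7-fold lower, and SMAD9 had 0, 0 and 2 reads in PEA2 and a ratio of 56.7 (15.1 to 478) towards PEA1. Among ligands TGFB2 fell by 2.91 (FDR 8.2e-07), and INHBB, an activin chain gene, had 0 reads in PEA1 and was at least 64.8-fold higher in PEA2. GDF15, a stress-induced member of the family, rose by 5.94 (FDR 1.87e-07). The BMP antagonist gene NOG had 0, 2 and 2 reads in PEA1 and 78, 131 and 80 in PEA2, a ratio of 43.3 (16.7 to 160).

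Wnt genes rose in 10 of 32 (31.2%) and fell in 9 (28.1%). The ligand genes WNT7A (3.41, FDR 4.02e-08) and WNT7B (3.99, FDR 7.04e-06) rose and WNT9A had 0 reads in PEA1. WNT2B held 53, 47 and 40 reads in PEA1 and 1, 3 and 0 in PEA2, a ratio of 58.4 (22.3 to 217), and WNT5B, which overlaps FBXL14 on the opposite strand, fell by 3.16. The Wnt factor gene TCF7L1 was at the floor in PEA2 with a ratio of 25.6 (8.22 to 129). Notch genes changed near the shares over all genes (18.3% higher and 15.3% lower), with 2 of 11 higher (18.2%) and 2 lower (18.2%). NOTCH3 rose by 2.22 (FDR 1.76e-08).

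Genes of drug efflux and platinum transport moved in both directions. ABC efflux transporters fell in 5 of 19 (26.3%) and rose in 2 (10.5%), and scaling to library totals gave 8 lower. ABCC4, which codes for a transporter of nucleotides and drugs, held 283, 235 and 377 reads in PEA1 and 73, 146 and 106 in PEA2 (log2FC -2.18, SE 0.15, FDR 1.34e-10). The cholesterol exporter gene ABCA1 fell by 3.33 (FDR 2.12e-08) and ABCA7 rose by 3.28 (FDR 3.07e-07). Copper and platinum transport genes rose in 3 of 14 (21.4%, against 18.3% of all genes) and fell in 4 (28.6%, against 15.3%). The copper exporter gene ATP7B held 13, 8 and 9 reads in PEA1 and 2, 7 and 1 in PEA2 (log2FC -2.45, FDR 8.51e-06). The cation extruder gene SLC47A1 had 32, 20 and 24 reads in PEA1 and 0, 0 and 1 in PEA2, a ratio of 127 (22.1 to 5071). The volume-regulated channel subunits, which pass platinum drugs, moved apart, with LRRC8A up by 1.21 (FDR 9.3e-07) and LRRC8D down by 1.22 on the log2 scale (log2FC -1.22, FDR 9.65e-07).

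Glutathione and NRF2 target genes, the thiol and oxidant defence, rose in 4 of 38 (10.5%, against 18.3% of all genes). They fell in 6 (15.8%, against 15.3%), with a median of 0.12. Thioredoxin reductase (TXNRD1) held 799, 767 and 1076 reads in PEA1 and 3289, 5715 and 3512 in PEA2 (log2FC 1.52, SE 0.07, FDR 1.14e-12). The aldo-keto reductase gene AKR1C3 fell by 3.82 (FDR 2.39e-06) and GSTA4 had 0 reads in PEA2. Metallothioneins, which bind metals through thiols, rose in 2 of 7 (28.6%) and fell in 0. The 2 that rose were MT1E (2.48, FDR 1.79e-07) and MT2A, which held 607, 529 and 698 reads in PEA1 and 2830, 4810 and 3617 in PEA2 (1.90, FDR 2.73e-05).

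Counts past 2-fold in the DNA repair lists gave shares near or below those over all genes (18.3% higher and 15.3% lower). Smaller differences are not in these counts, and 61.9% of all genes had an FDR below 0.05 at any size of change. Homologous recombination and Fanconi genes rose over 2-fold in 0 of 41, against 18.3% of all genes, and fell in 6 (14.6%, against 15.3%), with a median of -0.22, and the 6 became 13 with scaling to library totals. With an unadjusted p under 0.05 in limma the count of 0 stayed 0, as did the counts of 0 lower genes among keratins, metallothioneins and the unfolded protein response. The genes with the largest falls were EME1 (-1.39, FDR 0.000441), RAD51C (-1.35, FDR 4.2e-06) and SLX4 (-1.27, FDR 2.32e-05). EME1 codes for a nuclease subunit and SLX4 for a nuclease scaffold. RAD51B had a log2FC of 0.99 (FDR 0.00755) and RAD50 of 0.89 (FDR 2.75e-06). Nucleotide excision repair, which removes platinum adducts, rose in 4 of 25 (16%) and fell in 2 (8%). ERCC6, which starts repair in transcribed genes, held 5, 11 and 12 reads in PEA1 and 63, 101 and 84 in PEA2 (log2FC 2.45, FDR 9.42e-08), and ERCC8 rose by 1.70 while the helicase gene ERCC2 fell by 1.28. The mismatch repair, end joining and bypass list rose in 5 of 32 (15.6%) and fell in 2 (6.25%). XRCC4 (2.46), which works with DNA ligase in end joining, and MSH3 (1.95), a mismatch sensor gene, were at the top. With scaling to library totals the 5 became 3.

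The p53 targets changed near the shares over all genes, with 6 of 32 higher (18.8%), 5 lower (15.6%) and a median of -0.05. With scaling to library totals 3 were higher. CDKN1A, the p21 gene, held 11, 25 and 17 reads in PEA1 and 52, 61 and 59 in PEA2 (log2FC 1.05, FDR 0.0169), a call lost with quantile normalization, with scaling to library totals and without replicate 1 or 3 of either line. The death receptor gene FAS rose by 2.25 (FDR 1.29e-10). Regulators of apoptosis rose in 5 of 34 (14.7%) and fell in 6 (17.6%), also near the shares over all genes. The survival gene BCL2 held 34, 34 and 38 reads in PEA1 and 1, 5 and 1 in PEA2 (log2FC -4.65, SE 0.38, FDR 2.01e-09). BIRC2 fell by 1.53 (FDR 9.71e-09). The proapoptotic gene BIK had 0 reads in PEA1 and 42, 121 and 70 in PEA2, at least 46.6-fold higher.

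Lists of S phase and mitosis held smaller shares of changed genes than the background of 18.3% higher and 15.3% lower. S phase genes rose over 2-fold in 3 of 45 (6.67%) and fell in 5 (11.1%), and mitotic genes rose in 3 of 45 (6.67%) and fell in 4 (8.89%). Their medians were -0.28 and -0.23. With scaling to library totals the falls became 8 and 11 of 45, and the mitotic falls became 8 with quantile normalization. MKI67, the proliferation marker gene, held 1223, 1136 and 1511 reads in PEA1 and 1986, 3436 and 2330 in PEA2 (log2FC 0.28, FDR 0.0467), a difference that quantile normalization turned to -0.09 and scaling to library totals to 0.03, neither past the test. TYMS, the thymidylate synthase gene, which overlaps ENOSF1 on the opposite strand, held 274, 279 and 298 reads in PEA1 and 70, 145 and 70 in PEA2 (log2FC -2.36, FDR 2.29e-12). Among G1 regulators 3 of 22 (13.6%) rose and 6 (27.3%) fell. CCND3 fell by 2.78 (FDR 1.52e-10) and CDK6 fell by 2.21 (FDR 1.81e-06), both drivers of G1, and the inhibitor gene CDKN2C fell by 2.83 (FDR 1.43e-10). CCNE1, often amplified in serous cancer, had a log2FC of 0.56 that did not pass the test (FDR 0.0844).

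Cholesterol and fatty acid synthesis rose broadly. Of 33 listed genes 17 (51.5%) rose over 2-fold and 1 (3.03%) fell, with a median log2FC of 1.05. HMGCS1, which codes for a synthase early in the pathway, held 130, 127 and 147 reads in PEA1 and 1989, 3656 and 1933 in PEA2. Its deposited values were 6.41 to 6.57 in PEA1 and 9.79 to 10.05 in PEA2, without overlap (log2FC 3.47, SE 0.12, FDR 1.4e-14). The sterol reductase gene TM7SF2, which overlaps VPS51 on the same strand, rose by 3.70 (FDR 4.45e-10). The fatty acid elongase gene ELOVL6 fell by 1.49, and IDI1 had a log2FC of -0.77 (FDR 5.44e-06).

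Protein folding and amino acid stress genes rose in a smaller share. The unfolded protein response and heat shock list rose in 9 of 34 (26.5%) and fell in 0, with a median of 0.40. ERN1, the gene of the sensor IRE1, rose by 2.72 (FDR 5.89e-09), SDF2L1 rose by 2.37 and CRELD2 rose by 2.22, both secretory pathway factors. ATF4 targets and tRNA synthetases rose in 10 of 32 (31.2%) and fell in 1 (3.12%), with a median of 0.15. TRIB3 (2.38), the cysteine tRNA synthetase gene CARS (2.14) and STC2 (2.09) rose most. Glycolysis and hypoxia genes rose in 9 of 38 (23.7%) and fell in 4 (10.5%). VEGFA, the vascular growth factor gene, held 142, 139 and 155 reads in PEA1 and 782, 1011 and 819 in PEA2 (log2FC 1.88, FDR 1.82e-10), and ANGPTL4 rose by 3.29, while CA12 fell by 5.91 and PFKP fell by 2.09. Oxidative phosphorylation genes changed in 15 of 73, with 7 higher (9.59%), 8 lower (11%) and a median of -0.14. Scaling to library totals gave 4 higher. Ribosomal protein genes changed in 13 of 76, with 9 higher (11.8%), 4 lower (5.26%) and a median of 0.09. When replicate 1 of PEA2 was left out 14 were higher. RPS23 (2.57, FDR 6.22e-12) rose most, and RPL4 fell by 1.19 (FDR 8.54e-08). Ribosomal protein genes have many near-identical pseudogenes, so their counts are uncertain.

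Developmental regulators shifted in their own way. Homeobox genes fell in 12 of 35 (34.3%) and rose in 7 (20%), with a median of -0.49, and 4 rose with scaling to library totals. HOXB8, which overlaps HOXB7 on the same strand, rose by 3.48 (FDR 2.77e-07). Genes of retinoid metabolism and aldehyde dehydrogenases fell in 8 of 25 (32%) and rose in 5 (20%). The 8 became 5 when replicate 3 of PEA2 was left out, and also with 2 reads added to each count. ALDH1A3 rose from 29, 10 and 18 reads to 2033, 3543 and 2387 while ALDH2 fell by 2.58 and ALDH1B1 fell by 1.99. In the short list of stem-like genes 4 of 13 (30.8%) rose and 1 (7.69%) fell. PROM1, the gene of CD133, had 1 read in all of PEA1 and 121, 160 and 118 in PEA2, a ratio of 239 (42.7 to 9473), and LIN28B had 0 reads in PEA1 and was at least 14.2-fold higher.

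Expression differences were not spread evenly over the chromosomes. The 292 genes of chromosome 22 had a median log2FC of 1.26, and 179 of them (61.3%) were higher over 2-fold and 3.42% lower. Under scaling to library totals that median was 1.01, and between PEO4 and PEO1 the same genes had a median of -0.25. Chromosomes 3 and 5 followed, with medians of 0.60 and 0.56 and 32.4% and 37.4% of genes higher. On chromosome 18 the median was -0.81 and 40.1% of 192 genes were lower, and on chromosome 15 it was -0.59 with 32.7% of 425 genes lower. Copy number was not analysed here, so these are differences in RNA only. Chromosomes are described without a test, since genes of a chromosome are not independent.

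**Figure D5:**
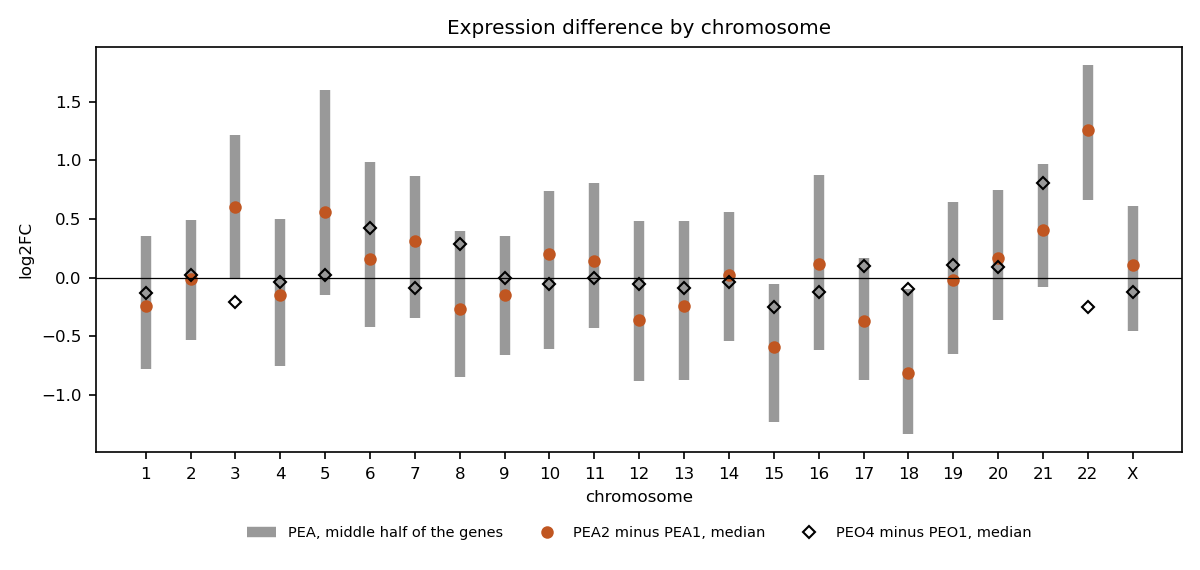
Median log2FC of the genes of each chromosome, PEA2 minus PEA1 (points), with grey bars from the lower to the upper quartile and open diamonds at the medians of PEO4 minus PEO1. Chromosome 22 stands at 1.26 and chromosome 18 at -0.81, against a median of 0.01 over all genes.

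Several list members named above lie on those chromosomes. These positions were looked up after the values were seen. In the mismatch repair and end joining list all 5 genes higher over 2-fold lie on chromosomes 22, 3 or 5 (XRCC6, PARP3, MSH3, POLK and XRCC4), where 8 of its 32 listed genes lie. All 3 S phase genes that rose lie there too (CDC45 and RFC4 among them), where 5 of the 45 lie, and the lowest, TYMS, lies on chromosome 18. The apoptosis genes BID and BIK, which rose, lie on chromosome 22. BCL2 and PMAIP1, which fell, lie on chromosome 18 and BMF, which fell, on chromosome 15. In the unfolded protein response list 5 of the 9 that rose lie on chromosome 22 (CRELD2, SDF2L1 and XBP1) or 3 (DNAJB11 and EDEM1), and 8 of its 34 genes lie on chromosomes 22, 3 or 5. In the cholesterol list 4 of the 17 that rose lie there, with SREBF2 on chromosome 22 and HMGCS1 and STARD4 among those on chromosome 5. In the cholesterol list 4 of 33 genes lie on chromosomes 22, 3 or 5 and all 4 rose. In the epithelial list 3 of 40 genes lie there and all 3 rose, out of 35 that rose in all. In the NF-kB list 6 of 41 lie there and 5 of them rose, out of 27 in all. Among ribosomal protein genes 11 of 76 lie there, with 5 of the 9 that rose, and among oxidative phosphorylation genes 11 of 73, with 4 of the 7 that rose. Some other lists did not lean upwards on chromosomes 22, 3 and 5. Of the serous lineage list 4 genes lie there, with 0 higher and 2 lower (CLDN16 and CP). Of the collagen list 5 lie there, with 1 higher and 3 lower. Of the matrix glycoproteins 7 lie there, with 3 higher and 3 lower, and of the glutathione list 6, with 1 higher and 0 lower. The part of copy number in any of these differences was not tested.

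The PEA difference was set against the PEO difference, tested as a difference of differences in limma. It was above the PEO difference by more than 2 on the log2 scale in 1396 genes (10.9%) and below it by more than 2 in 1103 (8.58%). A gene can be above through a rise in the PEA pair, a fall in the PEO pair or both. Of the epithelial list 33 of 40 genes were above and 0 below, and of the keratins 11 of 12 were above and 0 below. Only 9 of the 12 keratins rose over 2-fold in PEA2, and 3 were at the floor in both PEA lines. The summed keratin level was 8580 to 8877 CPM in PEO1 and 2870 to 3295 CPM in PEO4. In CDH1 the difference of differences was 9.90 (FDR 1.95e-09), since PEO1 and PEO4 both held it, at mean log2 levels of 7.17 and 6.55. VIM gave -6.18 (FDR 2.62e-15), with PEO1 at 3.67 and PEO4 at 5.37. Of the NF-kB list 26 of 41 were above and 2 below, IL8 by 16.03 (FDR 1.75e-11), with PEO1 at 4.66 and PEO4 at -0.46. Cholesterol genes were above in 12 of 33 and below in 0. Their summed level was 5399 to 5752 CPM in PEA1 and 10009 to 10296 CPM in PEA2. It was 5213 to 5966 CPM in PEO1 and 3568 to 3964 CPM in PEO4, so both pairs enter this count. Interferon-stimulated genes went the other way, with 4 of 41 above and 18 below, although their summed level rose in both pairs. It was 1684 to 1828 CPM in PEA1 and 2751 to 2941 CPM in PEA2. In PEO1 it was 1115 to 1180 CPM and in PEO4 6170 to 6524 CPM. For PAX8 the difference of differences was -0.67 and did not pass the test (FDR 0.139). For EREG it was 0.93 and did not pass either (FDR 0.352), with PEO1 at 1.12 and PEO4 at 4.58. For THBS1 it was -0.86 (FDR 0.000207), less than the 2 required for a count above, with PEO1 at 8.78 and PEO4 at 6.55. The EREG SE of 0.84 pooled the spread of all 6 lines. Its standard deviations were 1.34 in A2780 and 1.61 in CP70, and 0.04 to 0.31 in the PEA and PEO lines. For PAX8 they were 0.43 in A2780 and 0.73 in CP70, and 0.02 to 0.25 in the PEA and PEO lines. These 2 tests therefore do not show that the PEA and PEO differences are equal.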

How the data were processed

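Total RNA depleted of ribosomal RNA was sequenced from 6 lines with 3 replicates each. The authors aligned reads (Bowtie2 in the submitters' processing notes), counted them over the known hg19 genes with featureCounts, normalized them with limma and deposited log2 CPM values for 12853 genes. The strand setting of the counting and the filter on genes are not given in the sources used here. Whole reads were recovered from 100% of the values (tolerance 0.01). They gave the depth, the floor of 3 reads and the pooled folds.

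A linear model in limma 3.58.1 (R 4.3.3) was fitted to the deposited log2 values, in 1 fit of 18 libraries with a mean per line and a trend of the variance. FDR values are Benjamini-Hochberg adjusted over all genes. The PEA difference minus the PEO difference was tested in the same fit. On simulated data with 200 changed genes, 188 of them and 3 unchanged genes were called, and 4 genes were called without change.

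The members and the 43 gene lists were chosen with earlier results of these data known. Genes named were the 12 largest rises and falls above the floor, the 6 highest levels in each line with the other at the floor, up to 3 rises and 3 falls of each list, defining genes of the lists such as CDH1 or PAX8, and markers of other cell types. A few of these genes are not reported here but stay in the list counts. Genes outside this rule are said to be chosen after their values were seen. No set test was run. Gene spans are on GRCh37, where 12642 identifiers matched and 211 did not, and promoter windows are RefSeq on GRCh38.p14.

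Alternatives were the PEA libraries alone, the serous lines alone, a mean log2 value above 0, quantile normalization, a replicate block, no variance trend, voom weights, 2 reads added, TMM factors by own code, a 2-fold bound in treat, and each library left out. Scaling to library totals was added after seeing the data.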

Additional observations from a re-analysis of the deposited data

Results flagged for a closer look

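The PEA difference differed from the PEO difference, as tested in limma, for 49 of 58 genes that stood out by size or level or served as markers, 29 above and 20 below. Most of these genes were chosen for the PEA difference that itself enters the test, so a large share past the threshold was largely set by the choice and supports nothing. Over all genes the same test gave 1396 above (10.9%) and 1103 below (8.58%). The values that follow are the PEA log2FC minus the PEO log2FC.

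It was above for the epithelial and keratin genes KRT81 (14.92), KRT7 (11.67), CDH1 (9.90), KRT19 (8.36), MAL2 (6.78), EPCAM (4.14), KRT8 (3.24) and KRT18 (2.86). Secreted, matrix and adhesion genes above were CXCL5 (12.08), LCN2 (11.17), SPOCK2 (10.93), L1CAM (10.25), NID2 (9.36), SPON1 (9.04), ITGA2 (5.66) and FN1 (5.56). Genes of the serous and mesothelial lists above were MUC16 (6.81), CALB2 (4.98), MSLN (4.91) and SOX17 (4.28). The leukocyte and endothelial markers PTPRC (5.58) and CDH5 (6.11) were above as well. The others above were GPRC5A (9.61), UCA1 (9.52), ALDH1A3 (8.78), ANKRD1 (8.67), SLC4A11 (7.75), MACC1 (7.50) and LCP1 (7.11). In KRT81, KRT7, L1CAM, NID2, SPON1, ALDH1A3 and ANKRD1 the PEO log2FC was below -2, opposite in sign to the PEA log2FC.

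It was below for the mesenchymal and matrix genes MMP2 (-8.92), ZEB1 (-7.19), COL1A1 (-7.11), VIM (-6.18), ITGB3 (-6.11), NPNT (-3.16), COL1A2 (-2.54) and MXRA5 (-2.40). The others below were TM4SF18 (-14.23), CLU (-13.25), SALL1 (-11.49), FAT1 (-10.02), CYP1B1 (-8.21), KCNMA1 (-7.90), VAV3 (-7.83), ILDR2 (-6.28), CA12 (-6.18), NAV1 (-4.93), TLN2 (-4.85) and AK5 (-2.44). CLU fell by 7.19 in the PEA lines and rose by 6.06 in the PEO lines. COL1A2 had 8 reads in all 6 PEA libraries together, so its value rests on few reads. Values of genes at the floor depend on the 0.5 reads added.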

How the results depend on the processing

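The counts over all genes kept within 1.5 times their reported values under every alternative, at 828 to 1311 higher and 691 to 984 lower, 1858 to 2362 and 1860 to 2636 over 2-fold, and 1188 to 1417 above and 975 to 1359 below the PEO change. The replicate block gave 1019 and 789. Deviations of same-numbered PEA libraries correlated at r = -0.1304, -0.02341 and 0.07591 over 7482 genes. Differently numbered ones gave -0.1024 to 0.1113. With 3 libraries per line these values depend on each other, so they cannot decide whether the numbers pair the samples. Of the named genes with an FDR below 0.05, at any size of change, 14 did not keep it under some alternative. They were ABCB10, CD74, CDKN1A, COL1A2, DNAJB4, ERAP2, HES1, JUN, LAMA2, MKI67, MTF1, RPL7A, SESN1 and UPK3B. Differences that had not passed or barely passed the test changed sign. EGFR ranged from -0.17 to 0.08 (without replicate 3 of PEA1) when libraries were left out in turn, MKI67 went to -0.09 with quantile normalization, and MYC to -0.01 with quantile normalization and -0.09 with library totals. With a library left out PAX8 ranged from -0.15 to 0.08, above 0 without replicate 1 or 3 of PEA1 or replicate 1 of PEA2, and WT1 ranged from -0.05 to 0.55, below 0 without replicate 3 of PEA1 or of PEA2. The cause was not tested. Among list counts, 65 of 1290 moved. Depth limits genes at the floor, where 3 reads correspond to 0.863 to 2.18 CPM.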
